A study of Mus musculus with 2 samples.

Results

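Leukemia inhibitory factor (LIF) signalling was followed through 5 genes, Lifr, Il6st, Jak1, Stat3 and Socs3, out of 22367 protein-coding genes of the annotation. For each gene, the ATAC-seq peaks in the gene and in 50 kb on either side were taken, a peak belonging to a gene when its middle lay in that window. The windows held 55 of the 71914 peaks listed for WT and 35 of the 61640 peaks listed for Uhrf1 KO ESCs. The rule used the role of the genes and no measured value, but the genes were chosen with earlier results of these data known.

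ATAC-seq uses the Tn5 transposase to insert adapters into DNA that is not covered by nucleosomes. The WT sample was E14, a mouse ESC line kept undifferentiated, and the other sample was an undifferentiated E14 line lacking Uhrf1, a chromatin protein that reads histone and DNA methylation and is needed to maintain DNA methylation. Both were grown in serum medium with 1000 U/mL of LIF, on gelatin or on a layer of mouse embryonic fibroblasts (MEFs), and 50000 cells were lysed for each library. Because both lines received LIF, the data hold no LIF-free state. Each genotype is represented by 1 line and 1 library, so line, library and genotype cannot be told apart and no test was made between them. Values therefore compare these libraries. The lists hold positions of short, nearly uniform width without read counts, so the depth behind a single peak is unknown, and DNA with no listed peak may still have been accessible. Around Uhrf1 itself, 23 WT and 15 KO peaks were listed, with promoter peaks in both, which does not check the deletion.

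LIF keeps mouse ESCs self-renewing by binding a receptor made of Lifr and gp130, the product of Il6st. The receptor carries Janus kinases such as Jak1, which phosphorylate Stat3, and the Stat3 dimer enters the nucleus and binds palindromic sites in target genes. Socs3 is one of these targets, and its product inhibits the receptor complex, closing a feedback loop.

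Promoter peaks of marker genes were examined to describe the cells. Of the 7 ESC markers found in the annotation, 6 (Pou5f1, Sox2, Nanog, Esrrb, Zfp42 and Utf1) had a promoter peak in both lists. Dppa4 had one in WT only. Of 6 fibroblast markers, Col1a1, Col1a2 and Thy1 had a promoter peak in both lists and Col3a1, Postn and Twist2 in neither. Over all protein-coding genes, 57.0% had one in both lists, so these few counts cannot settle the identity of the cells. The part of MEF chromatin in the values was not tested.

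The sequences that follow hold STAT sites in peaks of the windows, and are shown because Stat3 binds sites of this form. All are from mm9 and are written 5′ to 3′ along the strand of the gene. Capitals mark matches to the STAT site TTCCNGGAA or to its looser form TTCNNNGAA, where N is any base.
Socs3 promoter peak of Uhrf1 KO, chr11:117830522-117830622, minus strand: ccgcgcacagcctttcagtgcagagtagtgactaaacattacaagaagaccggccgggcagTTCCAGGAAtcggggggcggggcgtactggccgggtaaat
Lifr upstream element, 200 bp centred on the WT peak, chr15:7065496-7065695, plus strand: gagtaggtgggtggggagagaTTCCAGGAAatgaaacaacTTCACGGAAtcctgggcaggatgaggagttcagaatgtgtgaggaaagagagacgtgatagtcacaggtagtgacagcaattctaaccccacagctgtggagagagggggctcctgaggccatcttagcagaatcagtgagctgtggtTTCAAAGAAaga
Jak1 peak without a KO partner, chr4:100937176-100937276, minus strand: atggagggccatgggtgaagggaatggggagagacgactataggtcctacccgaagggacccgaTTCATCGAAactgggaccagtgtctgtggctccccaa

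A second set shows peaks around which the lists agreed in position, an intron of Lifr and the promoters of Il6st and Stat3, and a repeat upstream of Stat3. The capitals in the repeat mark its central 31 bp, and the other sequences of this set have none.
Lifr intron, WT peak, chr15:7082841-7082941, plus strand: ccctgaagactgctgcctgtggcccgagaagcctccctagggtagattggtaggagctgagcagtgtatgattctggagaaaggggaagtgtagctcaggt
Il6st promoter, WT peak, chr13:113254165-113254265, plus strand: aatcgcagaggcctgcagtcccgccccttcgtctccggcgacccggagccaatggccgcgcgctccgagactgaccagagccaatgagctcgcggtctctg
Stat3 promoter, WT peak, chr11:100801032-100801132, minus strand: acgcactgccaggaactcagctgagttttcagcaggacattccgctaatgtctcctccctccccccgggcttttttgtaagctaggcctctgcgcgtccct
Stat3 upstream repeat, WT peak, chr11:100814410-100814510, minus strand: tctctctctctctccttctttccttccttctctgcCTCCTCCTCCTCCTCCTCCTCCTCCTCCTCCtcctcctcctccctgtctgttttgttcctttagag

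A last set shows peaks found in 1 list only with a motif of another factor. Capitals mark the octamer bound by Oct4, ATGCAAAT on either strand, in the Il6st peak, and the core of the CTCF motif on either strand in the others. CTCF organises chromatin loops.
Il6st upstream, KO peak without a WT partner, chr13:113252747-113252847, plus strand: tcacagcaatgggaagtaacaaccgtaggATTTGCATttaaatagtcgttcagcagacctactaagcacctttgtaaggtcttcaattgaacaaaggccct
Stat3 far upstream, WT peak without a KO partner, chr11:100844841-100844941, minus strand: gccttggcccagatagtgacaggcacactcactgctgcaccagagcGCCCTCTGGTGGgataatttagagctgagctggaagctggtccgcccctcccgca
Socs3 5′ end, WT peak without a KO partner, chr11:117831352-117831452, minus strand: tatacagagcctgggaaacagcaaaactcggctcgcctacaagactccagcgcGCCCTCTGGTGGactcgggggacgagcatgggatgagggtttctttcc

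The windows were compared as a whole first. 4 of the 5 genes had fewer peaks in Uhrf1 KO than in WT, and Il6st had more. The direction at Lifr and Il6st rested on 1 peak each: it turned at Lifr when neighbouring peaks were merged (5 WT and 6 KO regions), and at Il6st with the lower 50% of name numbers (3 WT and 2 KO peaks). Over all protein-coding genes, 56.7% had fewer and 23.3% had more, so fewer peaks was the common direction. The KO list held 0.636 times as many peaks in the windows as the WT list (95% interval 0.404 to 0.99), beside 0.857 for all peaks. The median ratio over protein-coding genes with a WT peak was 0.818, and both backgrounds lay inside the interval. All alternative settings gave intervals that included 1, such as 0.382 to 1.37 with 10 kb and 0.529 to 1.09 with 100 kb. These intervals, like the others given here, cover counting error only and treat neighbouring peaks as independent, which they are not. Most of the difference lay at Stat3 and Socs3, whose windows held 35 of the 55 WT peaks. Without both genes the ratio was 0.8 (0.388 to 1.62), from 20 WT and 16 KO peaks. The differences at Stat3 and Socs3 also depended on the setting. With the lower 50% of name numbers, Socs3 had 5 WT and 5 KO peaks and Stat3 8 and 6. With peaks nearer to another gene left out, Stat3 had 7 WT and 6 KO peaks, and Socs3 15 and 8.

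**Figure D1:**
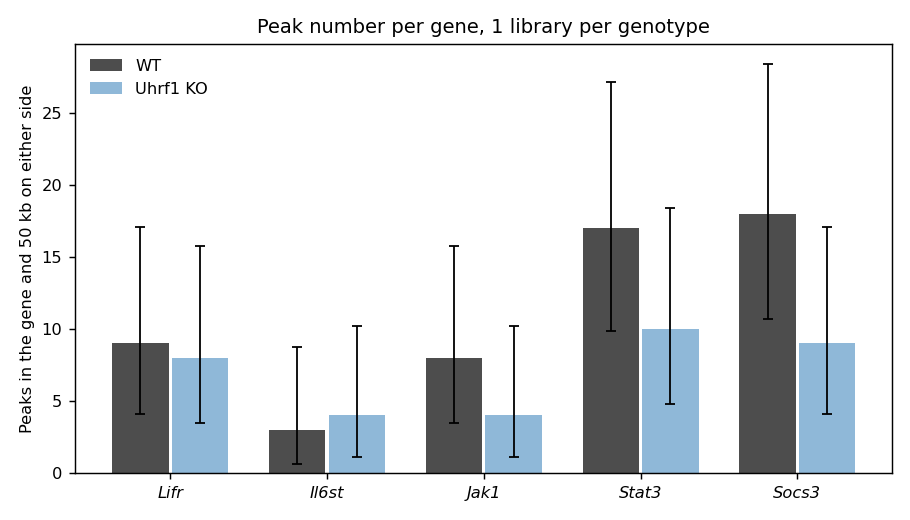
Number of peaks in each gene with 50 kb on either side, for WT and Uhrf1 KO, with 95% exact Poisson intervals as error bars (counting error only, 1 library per genotype). Socs3 goes from 18 to 9 peaks and Stat3 from 17 to 10, Lifr and Il6st differ by 1 peak, and the intervals of the genotypes overlap at every gene.

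A peak was called shared when the other list had a peak with a gap of at most 100 bp. In WT, 22 of 55 peaks (40.0%, exact binomial interval 27 to 54.1) had no partner in the KO list, beside 32.1% of all WT peaks. In Uhrf1 KO, 4 of 35 peaks (11.4%, 3.2 to 26.7) had no partner, beside 24.6% of all KO peaks. Both backgrounds lay inside the intervals. By gene, Lifr and Il6st had no WT peak without a partner, Jak1 had 4 of 8, Stat3 9 of 17 and Socs3 9 of 18. These counts are small and are given without intervals, so they do not establish a difference between the genes. Of those at Stat3, 4 made 1 region when neighbouring peaks were merged. The KO peaks without a partner lay at Lifr (1), Il6st (2) and Jak1 (1), while all KO peaks at Stat3 and Socs3 had a WT partner.

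Shared peaks were close in position. The middles of the 33 shared WT peaks lay a median of 19 bp (0 to 182) from the nearest KO peak, 14 of them within 10 bp. The sequence at the centre was unique in the genome, over 31 bp, for 87 of the 90 peaks of both lists. Peaks at annotated promoters of the genes were GC-rich, with a median of 68.5% GC in WT (57.5 to 83) and 67% for Uhrf1 KO (57 to 86). Peaks distal to annotated starts had a median of 59.5% in both. For all protein-coding promoter peaks the medians were 66% and 65%, and for all distal peaks 53.5% and 51%. The KO to WT ratio of all peaks was 0.818 on chromosome 15 (Lifr), 0.886 on chromosome 13 (Il6st), 0.842 on chromosome 4 (Jak1) and 0.852 on chromosome 11 (Stat3 and Socs3). The ratios at the genes were 0.889, 1.33, 0.5, 0.588 and 0.5 in that order, and each chromosome value lay inside the interval of its genes.

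Within 2 kb of an annotated start of the gene itself, 5 of 21 WT peaks (23.8%) and 0 of 13 KO peaks had no partner, the latter allowing a share of up to 24.7% by counting error. For promoters of all protein-coding genes the shares were 25.6% and 8.90%. Away from any annotated start, 11 of 25 WT peaks (44.0%) and 4 of 17 KO peaks (23.5%) had none, beside 38.7% and 37.5% of all distal peaks. Peaks near the RefSeq start of Il6st, described below, are counted as distal here. Among them is the KO peak without a partner 1481 bp from that start. The most one-sided place was the promoters of neighbouring genes, with 6 of 9 WT peaks and 0 of 5 KO peaks without a partner, and 4 of these WT peaks belonged to Stat5b.

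**Figure D2:**
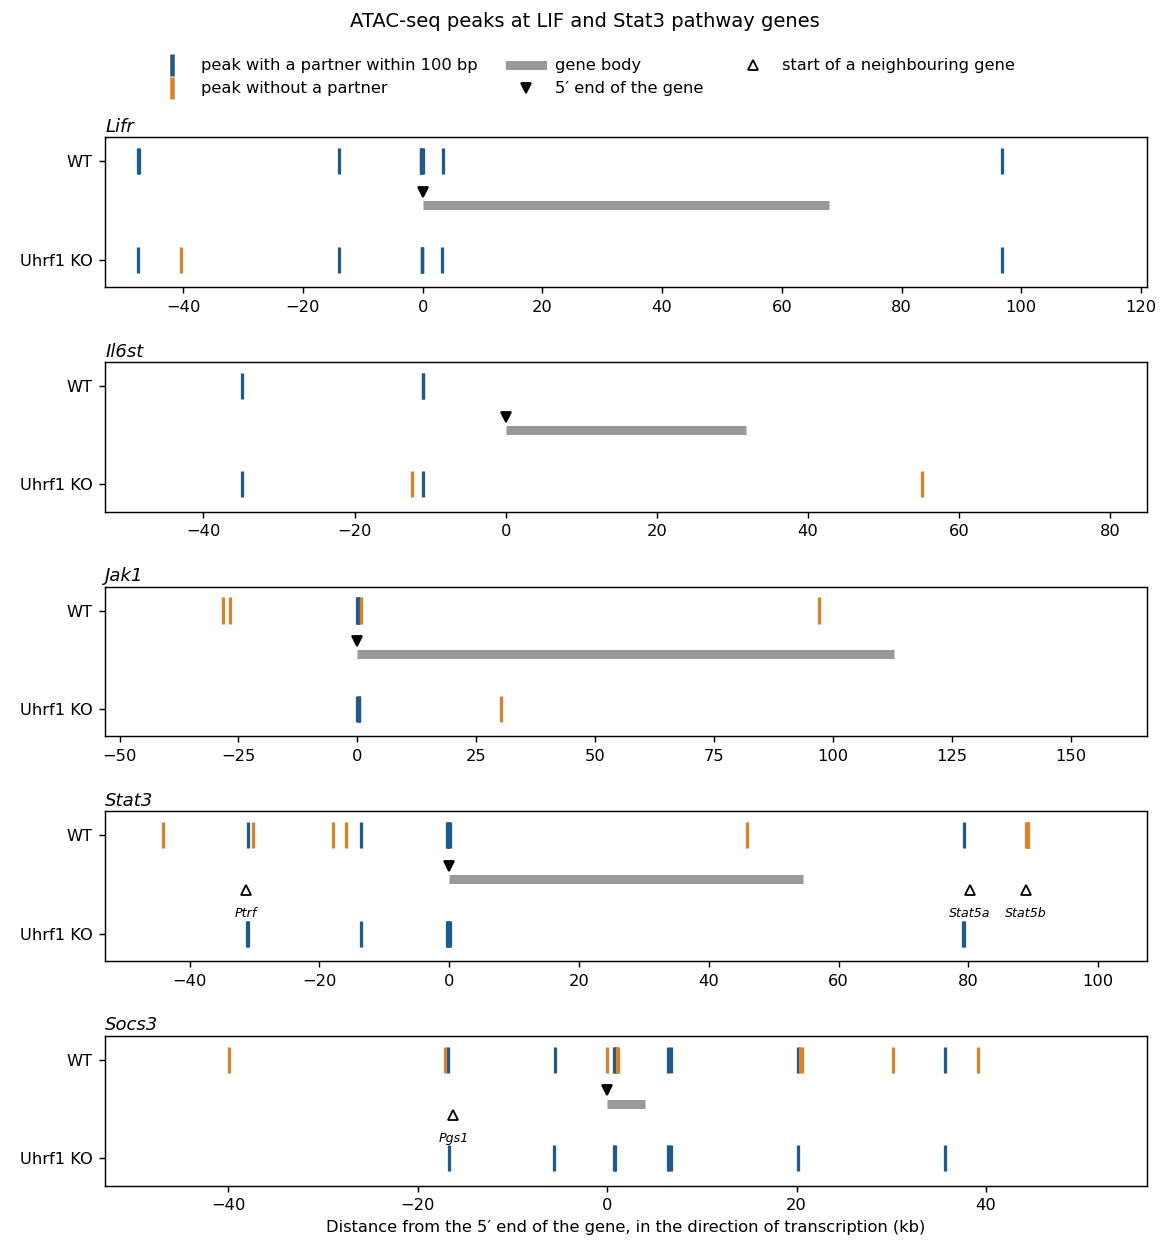
Position of each peak along the 5 windows (kb from the 5′ end of the gene, in the direction of transcription), WT above and Uhrf1 KO below the gene body, with blue for peaks with a partner within 100 bp and orange for peaks without. Every KO peak at Stat3 and Socs3 is blue, while 9 WT peaks in each of those windows are orange.

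Lifr encodes the LIF-binding subunit of the receptor. The gene (ENSMUSG00000054263.5) lies at chr15:7079559-7147489 on the plus strand and held 9 WT peaks (Poisson interval 4.12 to 17.1) and 8 KO peaks (3.45 to 15.8). Peaks stood at the same 5 places in both lists. Positions are given from the 5′ end of the gene to the middle of a peak, negative upstream. The places were a region at -47.6 kb, an element at -13963 bp in WT and -13965 bp in Uhrf1 KO, the promoter, an intron at +3332 bp in WT and +3296 bp in Uhrf1 KO, and an intron of the neighbouring gene Egflam at +96.8 kb. The only peak without a partner was a KO peak at -40394 bp. At the promoter, the 4 WT peaks reached from -272 to +43 bp and the 3 KO peaks from -148 to -30 bp. The window was thus nearly the same in both lists, with 1 promoter peak fewer in Uhrf1 KO.

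The upstream element of Lifr printed above had a STAT site at chr15:7065517-7065525, in the 200 bp around the peak but outside the listed bases, and 2 further loose matches. A second start of Lifr in RefSeq, at +10983 bp, had no peak within 2 kb in either list.

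Il6st encodes gp130, which passes the signal of LIF, IL-6 and related cytokines into the cell. The gene (ENSMUSG00000021756.5, chr13:113265216-113297068, plus strand) held 3 peaks in WT (0.619 to 8.77), the fewest of the 5, and 4 in Uhrf1 KO (1.09 to 10.2), as many as Jak1. No peak of either list lay within 2 kb of the annotated start. The RefSeq promoter sequence of Il6st, however, was found in mm9 at chr13:113254028-113254327, and placed the start at -10938 bp. There, 2 WT peaks lay with their middles 63 bp and 1 bp from the start, and 1 KO peak 62 bp from it. The WT peak printed above and the KO peak began 1 bp apart. With annotated starts, 4 of the 5 genes had a promoter peak in each list, beside 63.6% of all genes in WT and 58.7% in Uhrf1 KO, and with this start all 5 had.

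A further shared peak stood at -34.9 kb. The KO peaks without a partner lay at -12419 bp, 1481 bp upstream of the RefSeq start and with the octamer printed above, and at +55131 bp in an intron of Il31ra, a receptor gene of the same family. The latter had a CTCF core in the 200 bp around it. Il6st had more peaks in Uhrf1 KO than in WT by 1 peak, and equal numbers when peaks nearer to another gene were left out.

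**Figure D3:**
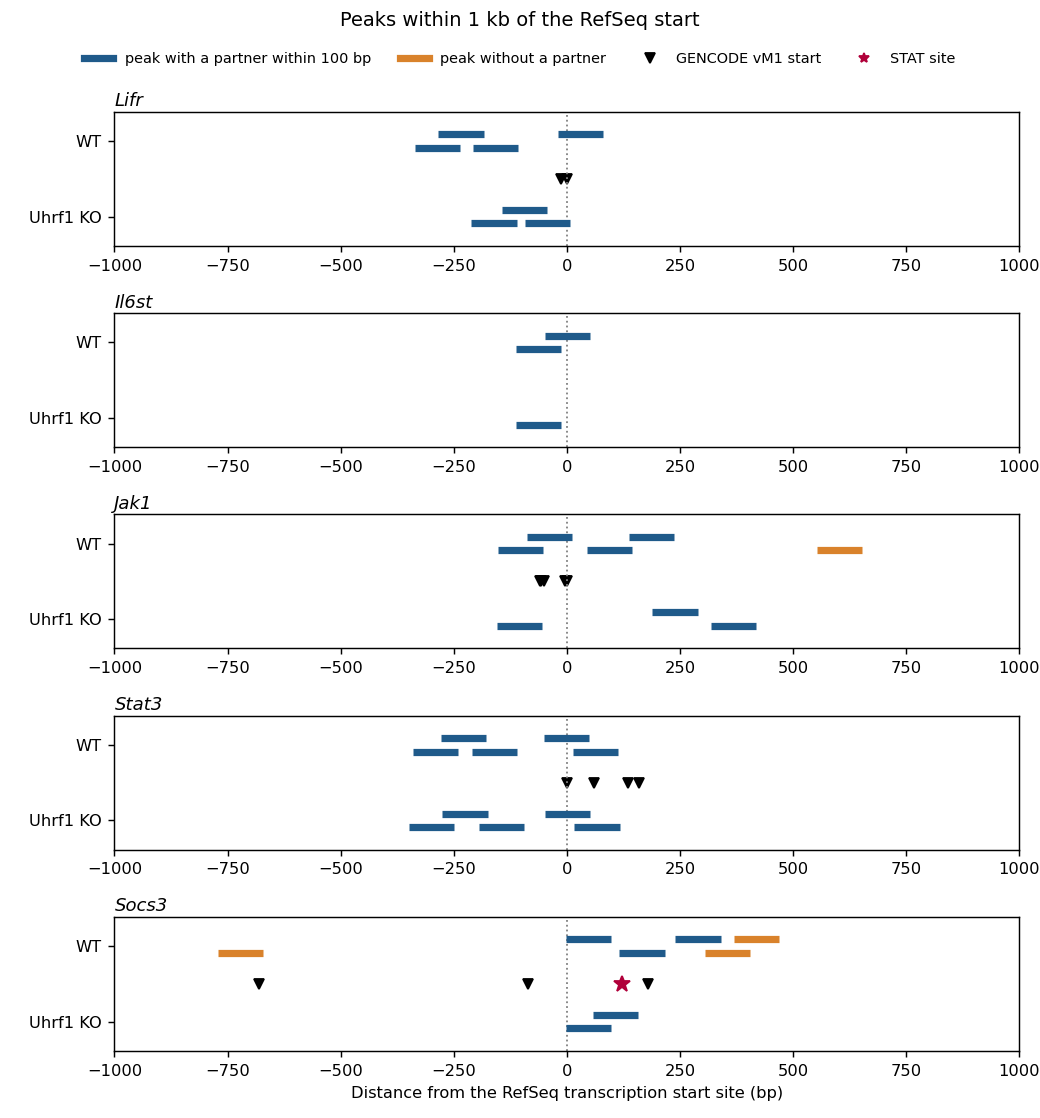
Listed peaks within 1 kb of the RefSeq start of each gene (x axis, bp from the start in the direction of transcription), WT above and Uhrf1 KO below, with triangles at annotated GENCODE starts and a star at the STAT site of Socs3. Stat3 shows 5 peaks at nearly the same positions in both lists, and Socs3 shows 6 WT peaks and 2 KO peaks, all of them within 1 kb.

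Jak1 encodes a Janus kinase that is bound to gp130. The gene (ENSMUSG00000028530.8, chr4:100824972-100937887, minus strand) held 8 WT peaks (3.45 to 15.8) and 4 KO peaks (1.09 to 10.2). The peak at the start was shared almost to the base, with its middle at -44 bp in WT and -45 bp in Uhrf1 KO. Inside the gene, WT peaks followed at +21, +154, +246 and +661 bp, and KO peaks at +298 and +428 bp. The peak at +661 bp, printed above with its loose STAT match, was 132 bp from the nearest KO peak and so just outside the limit for a partner. The other WT peaks without a partner were distal, at -26889 and -28200 bp and in an intron at +96967 bp.

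The KO peak without a partner at Jak1 lay in an intron at +30160 bp, in a GT-rich repeat whose central 31 bp occur 3 times in the genome. GGGTGTGG, a site of Klf factors, was found 3 times in the 200 bp around it, of which 2 were inside the listed bases. For Jak1, promoter peaks were thus found in both lists and all distal peaks were in 1 list only.

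Stat3 encodes the transcription factor that LIF activates. The gene (ENSMUSG00000004040.10, chr11:100746412-100800854, minus strand) held 17 WT peaks (9.9 to 27.2) and 10 KO peaks (4.8 to 18.4). The main promoter was matched closely, in that each list had 5 peaks there and the middles of each WT and KO pair were 3 to 15 bp apart. Merged, they made 1 region of 455 bp in WT and 467 bp in Uhrf1 KO. WT had a further peak at an internal start at +45894 bp, in a non-coding exon, which had no KO partner.

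Upstream, the shared peak at -13.6 kb was the CTC repeat printed above. Its central 31 bp occur 56149 times in the genome for the WT peak and 58416 times for the KO peak. As each read was reported at a single position, a read from within the repeat was placed at only one of these copies. WT peaks without a partner stood at -15.9, -17.8 and -44.0 kb, and those at -17.8 and -44.0 kb had a CTCF core. The promoter of Ptrf, a gene of caveolae, had a shared WT peak at -31067 bp and 2 KO peaks, and a WT peak without a partner at -30260 bp.

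Downstream of Stat3 lie its paralogs Stat5a and Stat5b. The Stat5a promoter had 1 WT and 2 KO peaks, all shared, near +79.2 kb. The Stat5b promoter had 4 WT peaks between +88.9 and +89.2 kb and no KO peak, the nearest KO peak being 9531 bp away from the closest of them. Of the 17 WT peaks, 10 were nearer to the start of another gene than to one of Stat3, as were 4 of the 10 KO peaks. Most of the difference in number at Stat3 thus lay outside its own promoter.

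Socs3 encodes the inhibitor that Stat3 induces. The gene (ENSMUSG00000053113.3, chr11:117827393-117831361, minus strand) is short, and its window held 18 WT peaks (10.7 to 28.4) and 9 KO peaks (4.12 to 17.1). Per 100 kb of window these were 17.3 and 8.66 peaks, more than in 96.4% and 84.9% of all protein-coding genes. Within 2 kb of the annotated starts, WT had 6 peaks and Uhrf1 KO had 2. A peak starting at 117830582 was at the same position in both lists. The other KO peak, starting at 117830522, is printed above and holds the STAT site TTCCAGGAA at chr11:117830553-117830561. A WT peak starting at 117830464 holds the same site.

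The STAT site of Socs3 is 57 bp upstream of the annotated start at 117830500, and downstream of the RefSeq start at 117830680 and of the other annotated starts. The 3 WT promoter peaks without a KO partner began at 117830210 and 117830274, inside the gene, and at 117831352, across the 5′ end. The last is printed above with its CTCF core. The core of the promoter that carries the STAT site was thus listed in both genotypes. The WT peaks beginning at 117830210 and 117830274 were 211 and 147 bp from the nearest KO peak, near the limit for a partner. Both belonged to a shared region when neighbouring peaks were merged. The peak beginning at 117831352 was 669 bp away and stayed without a partner when merged.

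Around Socs3, both lists had peaks at -5.6 kb, at +6.4 to +6.7 kb (2 WT and 3 KO peaks), at +20.2 kb and at +35.7 kb, and at the promoter of Pgs1, a gene of phospholipid synthesis, at -16.8 kb in WT. WT peaks without a partner lay at -39953 bp, at -17.1, +30.2 and +39.2 kb and, beside the shared peak of the region, at +20.4 and +20.6 kb. Of the 9 WT peaks without a partner, 3 were thus at the promoter of Socs3, that at -17.1 kb was at the promoter of Pgs1, and 5 were distal.

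**Figure D4:**
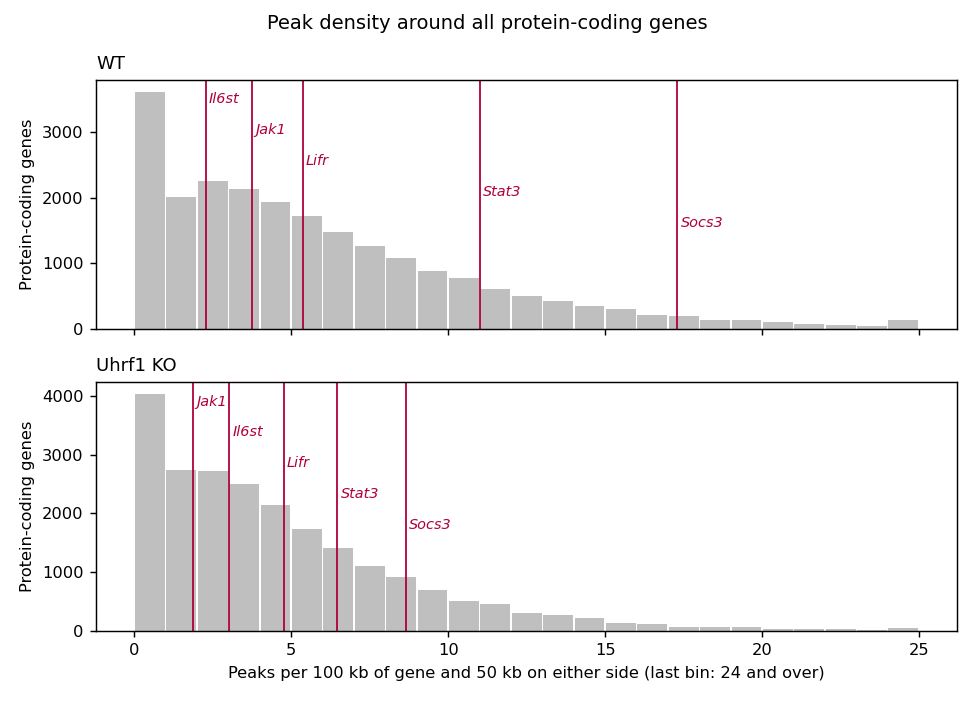
Peaks per 100 kb of gene and 50 kb on either side for all 22367 protein-coding genes (grey, 1 peak per 100 kb and bin, last bin open), WT above and Uhrf1 KO below, with the 5 genes as red lines. The medians of all genes are 4.69 in WT and 3.77 in Uhrf1 KO; Socs3 stands at 17.3 and 8.66, and Il6st at 2.28 and 3.03.

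The names of the peaks hold a number that runs within a chromosome, the meaning of which is not given in the sources used here. It was turned into a percentile of the chromosome and list. Among all peaks, those in the lowest 10% of numbers had a partner in 99.7% (WT) and 99.3% (KO) of cases, and those in the highest 10% in 34.3% and 46.5%. In the 5 windows, shared WT peaks had a median percentile of 40.1 (4.02 to 81.8) and WT peaks without a partner 73.8 (34.9 to 99.7). For KO peaks the medians were 44.8 (2.99 to 91.1) and 90.5 (80 to 99.2). The start of Jak1 (4.02 in WT, 4.94 in Uhrf1 KO) was among the lowest.

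The Lifr promoter differed most in this measure. Its lowest percentile was 17.3 in WT and 60.8 in Uhrf1 KO, a difference of 43.5 that 4.33% of 12746 genes with promoter peaks in both lists reached. Stat3 (9.01 and 11.7) and Socs3 (8.67 and 17.8) had higher percentiles in Uhrf1 KO by 2.68 and 9.08, differences that 55.5% and 35.1% of these genes reached. Il6st, measured at its RefSeq start because its annotated start had no promoter peak, went the other way, from 13.1 in WT to 3.75 in Uhrf1 KO. The intron peak of Lifr was low in both lists, at 4.7 and 9.2.

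**Figure D5:**
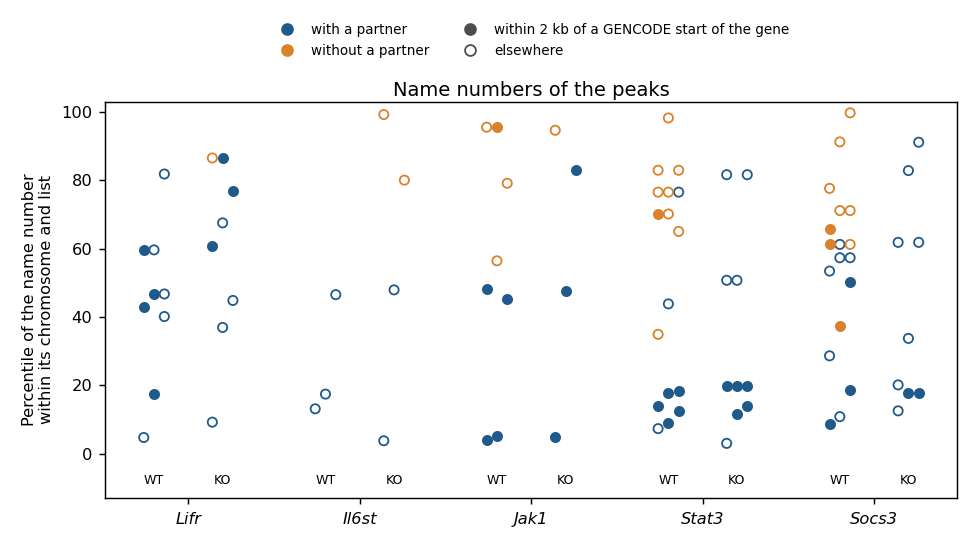
Percentile of the name number of each peak within its chromosome and list (y axis), by gene and genotype, with filled points for peaks within 2 kb of an annotated GENCODE start, blue for peaks with a partner and orange for peaks without. Peaks without a partner lie at 34.9 or above in WT and at 80 or above in Uhrf1 KO, and the 5 peaks at the main Stat3 start stay under 20 in both.

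Motifs were counted on both strands in the central 200 bp of each peak. The STAT site was found in 3 of 55 WT peaks (5.45%, exact binomial interval 1.14 to 15.1) and 3 of 35 KO peaks (8.57%, 1.8 to 23.1), beside 0.644% and 0.691% of all peaks. In the listed bases alone it was in 1 peak of each list (1.82% and 2.86%, beside 0.311% and 0.339% of all peaks). The matches in the central 200 bp were 2 distinct sites, at Lifr and Socs3, since neighbouring peaks of Socs3 share theirs, and all 6 peaks were shared. The loose form was in 9.09% and 11.4% of the peaks, beside 4.03% and 4.71%. Every strict match is also a loose one.

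The CTCF core was in 3 WT peaks (5.45%) and in 1 KO peak (2.86%), beside 6.84% and 5.54% of all peaks. The 3 WT peaks and the KO peak had no partner. Over the whole lists, the core was in 9.61% of WT peaks without a partner and in 5.54% of the shared ones. For KO peaks these shares were 5.47% and 5.57%. The octamer was in 1 KO peak, at Il6st, and in 0 of 55 WT peaks, and TCAAGGTCA, a site of Esrrb, in none of either list, beside 0.295% and 0.326% of all peaks. The octamer was in 1.58% of all WT and 1.94% of all KO peaks. GGGTGTGG was in 1 WT peak, at -39953 bp from Socs3, and in the KO peak of Jak1, beside 3.44% and 3.51% of all peaks. The RefSeq promoters of the 5 genes, read from 250 bases before to 50 after the start, held no STAT site; 1.15% of all 32851 RefSeq promoters did. The Socs3 promoter held 1 loose match, as did 8.30% of all.

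Of a wider list of 39 genes of the pathway, 38 were found. A promoter peak was listed in both genotypes for 32, in WT only for Il6 and Stat5b (6.64% of all genes were in WT only), in Uhrf1 KO only for Osm (1.73%), and in neither for Cntf, Il6st and Tyk2. Over all protein-coding genes 57.0% had one in both. With RefSeq starts added, Il6st and the kinase gene Tyk2 joined those with a peak in both, which made 34. With promoters of 1 kb, 28 genes had a peak in both, 5 in WT only, 0 in Uhrf1 KO only and 5 in neither. Osm was then in neither, and Il6 and Stat5b stayed in WT only. With the lower 50% of name numbers, these counts were 22, 6, 0 and 10, with Il6, Stat5b and Osm in neither. The calls in 1 list only thus depended on the setting. The roles were compared within 2 kb of annotated starts. All 9 inhibitor genes and all 8 Stat3 targets found had a promoter peak in both lists. So had 5 of 6 receptors, 3 of 4 kinases and 3 of 4 Stat genes, but 4 of 7 ligand genes.

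Peak numbers in this list ran from 30 WT and 17 KO peaks at Jak3, 26 and 20 at Junb, and 22 and 17 at Bcl3 down to 3 and 4 at Il6st, 3 and 2 at Osmr and 3 and 0 at Il6. Of the 33 genes besides the 5, 25 had fewer peaks in Uhrf1 KO, 4 had more and 4 had equal numbers, beside 56.7% with fewer and 23.3% with more over all protein-coding genes. The 33 genes had a median of 12 WT peaks and all protein-coding genes 7, and the latter include genes with no peak. The shares are thus not for genes of like peak number. The windows of Stat5a and Stat5b, which are among the 33, overlap that of Stat3 and share peaks with it. Lif, the ligand itself, had 11 WT and 9 KO peaks. The cytokine-receptor gene Osmr had the same 3 WT peaks in number as Il6st, but fewer peaks in Uhrf1 KO where Il6st had more.

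Genes with the same numbers of WT, KO and unpartnered peaks as a member were looked up, and of these the one nearest in window length was taken. 3 genes matched Lifr (Il23r, with a window of 168.9 kb against 167.9 kb), 11 matched Il6st (Gata6, 133.1 against 131.9 kb), 23 matched Jak1 (Coro2b, 217.6 against 212.9 kb) and 3 matched Socs3 (Mrpl20, 106.2 against 104 kb). No gene matched Stat3. The likeness is in numbers of peaks only.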

How the data were processed

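The authors mapped ATAC-seq reads to mm9 with Bowtie2 2.1.0, reporting 1 alignment per read. HOMER 4.9.1 is listed in the submitters' processing notes, with no role. How peaks were called, the threshold and any shift of read ends to the Tn5 cutting site are not given in the sources used here. A different threshold in each list would change which peaks lack a partner. The deposited lists hold peak positions, a name and a score; the deposited score is 1 for every peak and was not used. The number in the peak name (unit other, as deposited by the authors) was used as a percentile.

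Genes and starts came from GENCODE vM1, which is on mm9, and sequence from NCBIM37. RefSeq promoters (GRCm38.p6) were placed on mm9 by exact match, and 6 for the 5 genes were found. A shared peak had a gap of at most 100 bp, the study's distance for transcription factor peaks. A promoter peak had its middle within 2 kb of a start. Python 3.11.15, numpy 2.4.6, pandas 2.3.3, scipy 1.17.1, numba 0.67.0 and matplotlib 3.10.9 were used. The routine that finds partners was tested on 20000 simulated regions and made 0 wrong calls. No test between genotypes was made, with 1 library each.

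The genes, gene lists and alternatives were chosen with earlier results of these data known. The text names the 5 genes, of the wider list those with a promoter peak in 1 list or neither and the 3 with most and 3 with fewest WT peaks, the gene of nearest window length with the same peak numbers, and genes with a start near a printed peak. Lif and the peaks with printed sequences were chosen after their values were seen. Tfcp2l1 was not found under that name in the annotation. Alternatives were other windows (10 and 100 kb), other rules for a partner, merged peaks, the lower 50% of name numbers, promoters of 1 kb, and the listed peak for motifs. RefSeq starts and leaving out Socs3 or Stat3 were added after seeing the data.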

Additional observations from a re-analysis of the deposited data

How the results depend on the processing

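No paired analysis was possible because neither line was sequenced more than once, and no replicate could be left out. Of 141 alternative values, 89 stayed close to the reported one, which meant within 1.5 times for numbers of peaks, within the interval for shares, ratios and motifs, and of the same sign for differences. Windows of 10 kb held 26 WT and 19 KO peaks, with 23.1% of WT peaks without a partner, and windows of 100 kb held 75 WT and 57 KO peaks, a ratio of 0.76, with 36.0% and 21.1% without a partner. The lower 50% of name numbers left 26 WT and 18 KO peaks, 23.1% and 0% of them without a partner, and turned the difference at Il6st to -1 peak (KO minus WT). Merging neighbouring peaks gave 34 WT and 23 KO regions and turned the difference at Lifr to 1. Asking that peaks share at least 50% of their length raised the shares without a partner to 63.6% (WT) and 40.0% (KO), beside 50.2% and 42.4% of all peaks under the same rule. In the listed peak alone, the STAT site was in 1.82% of WT and 2.86% of KO peaks and the loose form in 3.64% of WT peaks, while Klf sites were in 0% of WT peaks, loose STAT sites in 2.86% of KO peaks and CTCF cores in 0% of KO peaks. Without Socs3 the KO to WT ratio was 0.703 and without Stat3 0.658. For the turned differences the cause was not tested.

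With 1 library per genotype and no read counts, neither the error of a peak nor its absence from a list can be judged, and intervals cover counting error only.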
